A study of Mus musculus with 14 samples.

Results

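The miR-148/152 family was examined in exosomes that adipose tissue macrophages release. Its members were taken by name, as the rows mmu-mir-148a, mmu-mir-148b and mmu-mir-152 of the authors' deposited table (the species prefix is left out below), and all 3 were present among its 539 miRNA hairpins. Exosomes are small vesicles that carry RNA between cells. They came from CD11b+F4/80+ macrophages of the fat of C57BL/6 mice, cultured for 72 h in medium whose 10% serum had been freed of exosomes. The labels give 7 libraries from obese and 7 from lean animals and do not name the diet. The age labels begin at 24 weeks in both groups and end between 26 and 32 weeks in the obese group and between 33 and 39 weeks in the lean group, stepping by 1 week per library. If these labels hold, age cannot be told apart from obesity. The labels do not say whether libraries came from separate or pooled animals, so the p-values cover no more than the variation among the libraries.

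A microRNA (miRNA) is cut from a hairpin precursor, and 1 of its arms is loaded into an Argonaute protein, where the bases near its 5′ end, the seed, pair with messenger RNAs and repress them. The miR-148/152 family is defined by the seed of its 3p arm. Known targets of its members include the maintenance DNA methyltransferase DNMT1, and, in liver, the cholesterol exporter ABCA1. In fat, miR-148a is reported to favour the formation of adipocytes. In dendritic cells, which like macrophages are myeloid cells, the family is reported to dampen responses to Toll-like receptor stimulation.

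The mature 3p arms are shown because they define the family and would decide how reads are shared between its hairpins. They are RefSeq sequences on GRCm38.p6, written 5′ to 3′ with the seed, bases 2 to 8, in capitals. All 3 hairpins were matched.
miR-148a-3p: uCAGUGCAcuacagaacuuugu
miR-148b-3p: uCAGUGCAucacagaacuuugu
miR-152-3p: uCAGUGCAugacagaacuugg

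Among 1679 mature mouse miRNAs in the RefSeq table, these 3 alone have that seed. Counted from base 1 at the 5′ end, miR-148b-3p differs from miR-148a-3p by C9U and U10C, both just outside the seed. Over its 21 bases miR-152-3p differs from miR-148a-3p by C9U, U10G and U20G, and from miR-148b-3p by C10G and U20G. The longest stretch that the hairpins share is 15 bases, between mir-148a and mir-148b. It is 12 bases between mir-148a and mir-152 and 11 between mir-148b and mir-152. A read of a full 3p arm therefore matches 1 of the hairpins without a mismatch. How many mismatches the authors' alignment allowed is not stated there.

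The 5p arms are shown because the authors' deposited table names hairpins only, so reads of both arms may enter a row.
miR-148a-5p: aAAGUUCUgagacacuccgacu
miR-148b-5p: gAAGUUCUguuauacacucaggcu
miR-152-5p: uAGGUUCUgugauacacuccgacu

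On this arm mir-148a and mir-148b have the same seed, which no other mature miRNA of the RefSeq table has, and the seed of miR-152-5p was found in that arm alone. The family relation of mir-152 to mir-148a and mir-148b thus lies in the 3p arm. The map of arms shows the 3p arm at bases 61 to 82 of the mir-148a and mir-148b hairpins and at bases 47 to 67 of the shorter mir-152 hairpin.

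**Figure D1:**
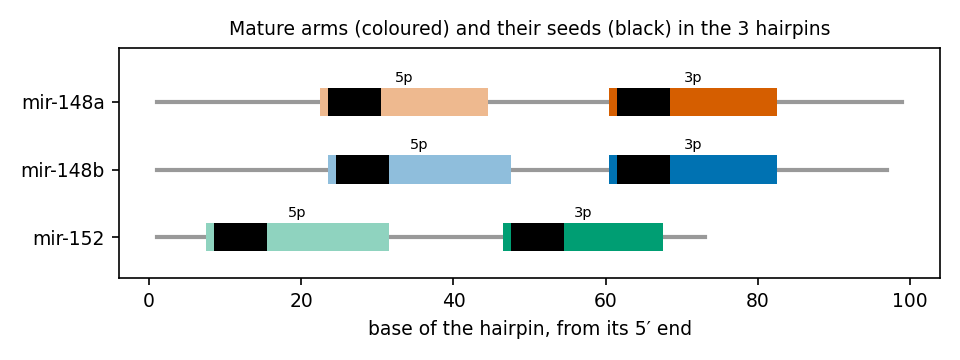
Position of the mature arms in the mir-148a, mir-148b and mir-152 hairpins, in bases from the 5′ end of each RefSeq hairpin (grey line). Pale bars are 5p arms, full bars 3p arms and black parts the seeds. The hairpins are 99, 97 and 73 bases long.

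The hairpins lie on different chromosomes. In RefSeq and in GENCODE M21, both on the mouse assembly GRCm38, mir-148a (ENSMUSG00000065505.1) lies at chr6:51269812-51269910 on the minus strand, in no annotated host gene, and 13.6 kb from the nearest other gene, the long noncoding RNA Gm32479. The hairpin mir-148b (ENSMUSG00000065560.1) lies at chr15:103285125-103285221 on the plus strand, in intron 1 of Copz1. The hairpin mir-152 (ENSMUSG00000065515.1) lies at chr11:96850393-96850465 on the plus strand, in intron 1 of Copz2. Copz1 and Copz2 encode the zeta subunits of the coatomer, the coat of vesicles that move between the Golgi apparatus and the endoplasmic reticulum. Of the family's hairpins, those of mir-148b and mir-152 thus sit in the same intron of paralogous hosts. No gene is annotated on the opposite strand at any of the 3 places. An 18-base stretch of mir-148a or mir-152 was found in no transcript of another gene. One of mir-148b, bases 39 to 56 of the hairpin, was found as its reverse complement in Medag, a gene named for its link to adipogenesis. That stretch takes in the end of the 5p arm and not the 3p arm. Whether reads were counted by strand is unknown.

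The complement of the seed, TGCACTG, was looked up on the sense strand of 3′ untranslated regions in GENCODE M21, with the longest region taken per gene. It occurs in 12.6% of 20983 regions, whose median length is 954 bases. Of 4 genes known as targets, some from human cells only, 3 hold it in mouse. Stretches of 27 bases around it are shown for a target of the DNA methylation pathway and one of the lipid pathway, with the 7 bases that match the seed in capitals.
Dnmt1 bases 23 to 29: acccagagccccacgTGCACTGatgtt
Abca1 bases 54 to 60: agcgaggtcttccttTGCACTGtgtca
Abca1 bases 2963 to 2969: taatggatctattttTGCACTGgaata

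In Dnmt1 the match is followed by an A, the base that Argonaute favours opposite base 1 of a miRNA, and in Abca1 it is not. Matches followed by an A occur in 3.56% of all regions. The integrin gene Itga5 holds 2 matches, 1 of them followed by an A, and the cell cycle inhibitor gene Cdkn1b holds none in its longest region of 3439 bases. These matches describe sequence only, since no target was measured here.

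The members differed in abundance. In the authors' deposited table mir-148b had a mean log2 expression of 10.41 over both groups, rank 55 of 539. There mir-148a was at 6.88, rank 139, and mir-152 at 5.92, rank 162. The order from high to low was thus mir-148b, mir-148a and mir-152, and every member lay above the table's median of 2.34. From the authors' deposited table, mir-148b stood 3.52 log2 units above mir-148a, or 11.5-fold, and mir-148a stood 0.97 log2 units above mir-152, or 1.96-fold. Back-transformed from those means, mir-148b made up 88.4% of the family, mir-148a 7.70% and mir-152 3.93%, and the family 0.285% of the table's summed level. Some hairpins of near-equal level, such as mir-181a-1 (12.64) and mir-181a-2 (12.66), may not be separate measurements. The table's sum may then count the same reads more than once. The family's levels are not set per length, but its 3p arms are 21 or 22 bases long, and capture efficiency can differ between miRNAs. The authors' deposited table gives no error for a mean level and no value per library or per group, so whether neighbours in this order differ beyond their spread cannot be told.

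The comparison asks whether the exosomes of obese and lean macrophages differ in their miRNAs. The authors' deposited table does not name the numerator of its fold changes. A published study of these exosomes, not part of the data used, found miR-155 raised in obesity, and mir-155 has a positive log2 fold change of 4.41 (95% interval 2.75 to 6.06) in the authors' deposited table. Under that report a positive value means more in the obese group. Signs below are given as deposited and hold relative to mir-155. A hairpin is called where limma's adjusted p, over all 539 rows, is under 0.05.

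No member of the family was called. Over the whole of the authors' deposited table, a share of 5.57% of rows was called, 30 of 539, with 2.04% on the positive and 3.53% on the negative side, so among 3 rows a count of 0 is near the background. At an unadjusted p under 0.05 in the authors' deposited table, 1 member passed, mir-148b, on the positive side, where 17.6% of all rows passed and 8.53% did so on the positive side. Medians are a description only: the members' median log2 fold change was 0.42, that of mir-148a, against 0.09 over all rows and 0.34 over the 180 most abundant rows of the authors' deposited table.

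The hairpin mir-148b had the largest value, a log2 fold change of 1.96 with a standard error of 0.82 in the authors' deposited table, or 3.89-fold. Its 95% interval runs from 0.24 to 3.68, or from 1.18-fold to 12.8-fold. In the authors' deposited table limma gave it a p of 0.0275, rank 75 of 539, and an adjusted p of 0.196. The interval is that of 1 hairpin and is not widened for the 539 rows tested. The most abundant member therefore lay on the side of mir-155 without passing over the whole table.

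The hairpin mir-148a had a log2 fold change of 0.42 with a standard error of 1.37 in the authors' deposited table (limma, adjusted p = 0.929). Its 95% interval, from −2.46 to 3.30, takes in differences from 0.182-fold to 9.87-fold. The hairpin mir-152 was at −0.24 with a standard error of 0.76 in the authors' deposited table (limma, adjusted p = 0.929). Its 95% interval, from −1.84 to 1.35, takes in differences from 0.279-fold to 2.56-fold. A several-fold difference in mir-148a, in either direction, thus lies within its interval, while for mir-152 the interval is narrower.

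**Figure D2:**
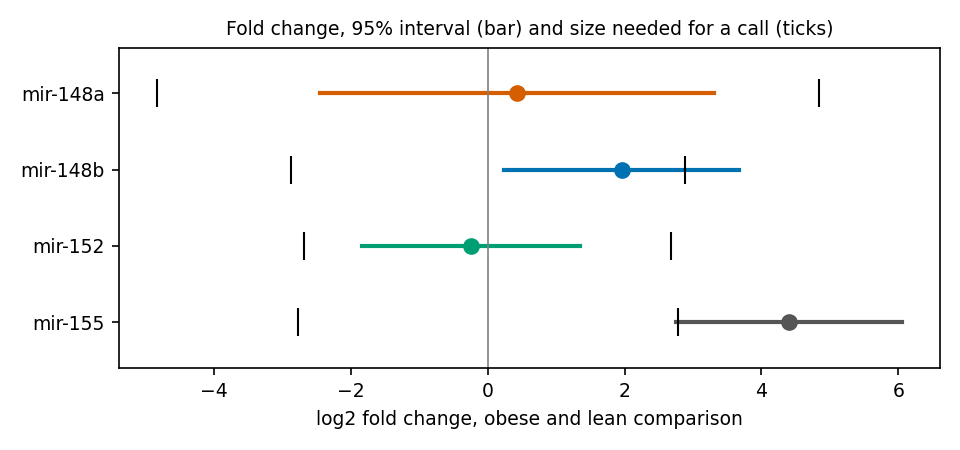
Log2 fold change (dot) and 95% interval (bar) of the family's hairpins and of mir-155, from the authors' deposited table. Black ticks mark the size a fold change needs, at each row's standard error, to reach the smallest absolute t that was called, 3.53. The dots of mir-148a, mir-148b and mir-152 lie inside their ticks, and the dot of mir-155 lies outside.

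The size that a call needs differed between the members. At the smallest absolute t called in the authors' deposited table, 3.53, and at its own standard error, mir-148a would have needed a log2 fold change of 4.84, or 28.6-fold. The values are 2.88 for mir-148b, or 7.38-fold, and 2.68 for mir-152, or 6.42-fold. These are sizes of the estimate at which a row would have been called, not limits on the differences that may exist.

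Differences between the members themselves were not tested, because their errors come from the same libraries and the table does not give the correlation. In the authors' deposited table mir-148b exceeded mir-148a by 1.54 on the log2 fold change scale and mir-152 by 2.20. With uncorrelated errors the standard errors would be 1.60 and 1.12. Depending on the correlation, they can lie anywhere from 0.55 to 2.19 and from 0.06 to 1.58. Values for mir-148a and mir-152 differ by 0.67, with a standard error of 1.57 if uncorrelated. The hosted pair, mir-148b and mir-152, thus had opposite signs, but whether they differ cannot be told from the authors' deposited table.

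The standard errors also set the members apart from rows of like abundance. Of the 50 hairpins nearest to mir-148a in mean expression, 43 had a smaller standard error in the authors' deposited table, and their median was 0.87 against its own 1.37. Of the 50 nearest to mir-152, 9 had a smaller one, and their median was 0.96 against its own 0.76. For mir-148b 39 of 50 were smaller, with a median of 0.64 against its own 0.82. So the errors of mir-148a and mir-148b were larger, and that of mir-152 smaller, than for most rows of like level. In fold change, 6 of the 50 rows nearest in level to mir-148b lay above it in the authors' deposited table, and their median was 0.52. For mir-148a 15 of 50 lay above, and for mir-152 25 of 50.

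**Figure D3:**
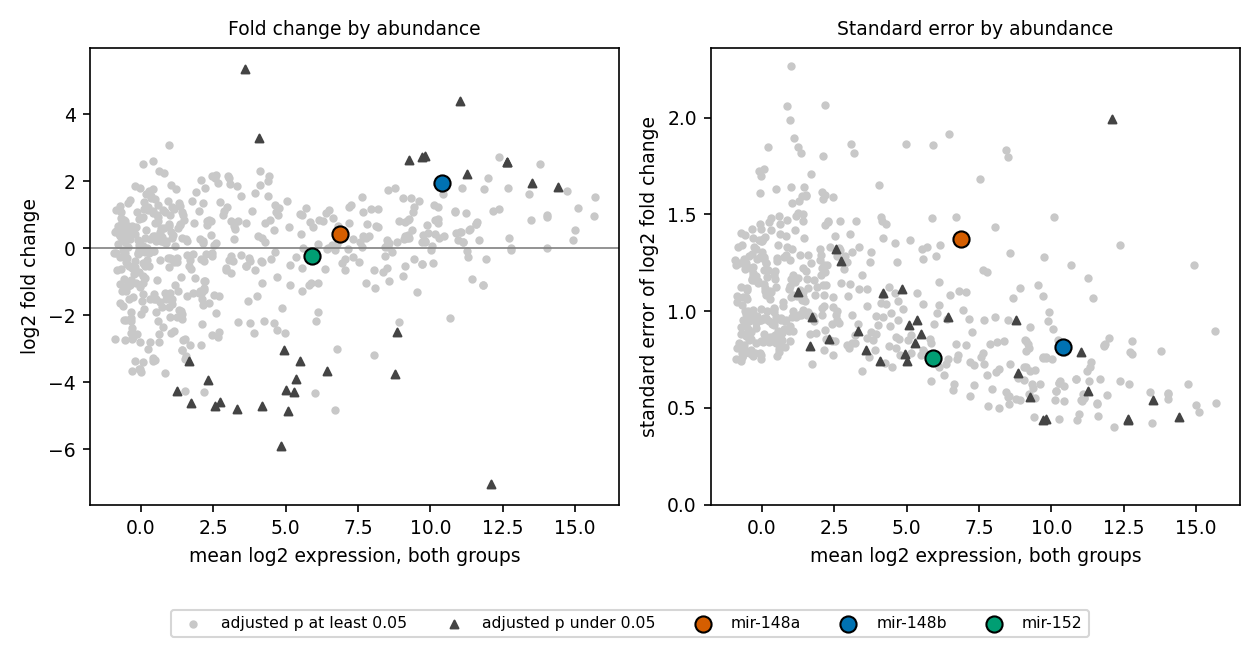
Log2 fold change (left) and its standard error (right) against the mean log2 expression of all 539 hairpins in the authors' deposited table. Triangles are rows with an adjusted p under 0.05, grey dots the other rows and large dots the family. The dot of mir-148b lies among abundant rows at 1.96, and the dot of mir-148a stands high on the right for its level, at 1.37.

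By level, the rows nearest to mir-148b in the authors' deposited table were mir-93, of the miR-106b cluster, mir-29a, mir-23b and mir-378c. Their log2 fold changes were 1.62, 2.0, 0.36 and 0.30, and none was called (limma, adjusted p from 0.0614 to 0.898). Nearest to mir-148a in level were mir-100, mir-8114, mir-451b and mir-1249, at 0.65, −0.42, 0.15 and −2.99 on the log2 fold change scale of the authors' deposited table. Nearest to mir-152 were mir-126b, mir-29c, mir-7a-1 and mir-212, at −0.18, 0.64, −1.05 and −0.07 on the same scale of the authors' deposited table. None of these 8 was called.

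With 1 comparison in the table, likeness in pattern can only mean a like fold change. Among the more abundant rows of the authors' deposited table, let-7i (1.95), mir-455 (1.94), mir-92a-2 (1.93) and mir-29a (2.0) were nearest to mir-148b in log2 fold change. Of these, let-7i was called (limma, adjusted p = 0.0383) at a standard error of 0.54, against the 0.82 of mir-148b. Nearest to mir-148a were mir-125b-1, mir-677, mir-3074-2 and mir-10b, between 0.40 and 0.45 in the authors' deposited table. Nearest to mir-152 were mir-15a, mir-342, mir-34c and mir-5114, between −0.27 and −0.22 in the authors' deposited table. None of these last 8 was called.

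The letters of the family's seed also open other mature miRNAs, shifted by 1 base, so that those miRNAs have a different seed. Among RefSeq's mature miRNAs 7 begin with them, and 3 of their hairpins have a row, those of mir-130a, mir-130b and mir-301a. In the authors' deposited table mir-130b, at a level of 10.26 close to that of mir-148b, had a log2 fold change of 0.77 with a standard error of 0.44 (limma, adjusted p = 0.394). There mir-130a was at 2.10 (limma, adjusted p = 0.472) and mir-301a at −0.64 (limma, adjusted p = 0.901). The hairpin mir-301b, which was not matched to a RefSeq mature sequence here and is outside these counts, was at 0.04 (limma, adjusted p = 0.987) in the authors' deposited table.

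Other miRNAs of the family's pathways were described by 4 lists, of which some hairpins are in more than 1. The first holds miRNAs known to target mRNAs of cholesterol transport, as miR-148a does. Of its 21 hairpins in the authors' deposited table none was called (limma), 4 had an unadjusted p under 0.05, 17 had a positive fold change, and the median was 0.45. Over all rows the shares are 5.57% called and 17.6% at an unadjusted p under 0.05. The 2 of smallest p were mir-106b at 1.81 (limma, adjusted p = 0.0614) and mir-27a at 1.80 (limma, adjusted p = 0.0740) in the authors' deposited table. Both, like mir-148b, were on the positive side, as were 67.8% of the 180 most abundant rows.

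The second list holds 21 miRNAs known to target DNA methyltransferase mRNAs, as all members of the family are reported to do. One was called on the positive side, mir-140, at 2.22, and one on the negative, mir-29b-1, at −3.66 (limma, adjusted p = 0.0310 each), and the median was 0.48, in the authors' deposited table. The hairpin mir-29b-2, of the same stem as mir-29b-1, was at −0.54 and was not called (limma, adjusted p = 0.896). Of the same family, mir-29a at 2.0 and mir-29c at 0.64 were not called either (limma, adjusted p = 0.0614 and 0.780). The miR-29 family is best known here for the de novo methyltransferases DNMT3A and DNMT3B. The 2 calls among 21 stand beside the 5.57% called over all rows. They become 1 after recentring by the 180 most abundant rows and 0 under Benjamini-Yekutieli adjustment. The family's own hairpins are not part of the list.

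Of 22 hairpins reported to promote adipocyte differentiation, as miR-148a is, mir-210, a miRNA induced by hypoxia, was called, at 2.64 (limma, adjusted p = 0.00704), and the median was 0.79, in the authors' deposited table. Next by p was mir-92a-1 at 2.52 (limma, adjusted p = 0.0717) in the authors' deposited table. Among 30 hairpins reported to inhibit it, 3 were called, all positive, and the median was 0.75, in the authors' deposited table. They were mir-155, from which the signs are taken, mir-222 at 1.82 (limma, adjusted p = 0.0240) and let-7i at 1.95 (limma, adjusted p = 0.0383). These 3 of 30 and the 1 of 22 stand beside the 5.57% called over all rows, and after recentring by the 180 most abundant rows the 3 become 1.

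**Figure D4:**
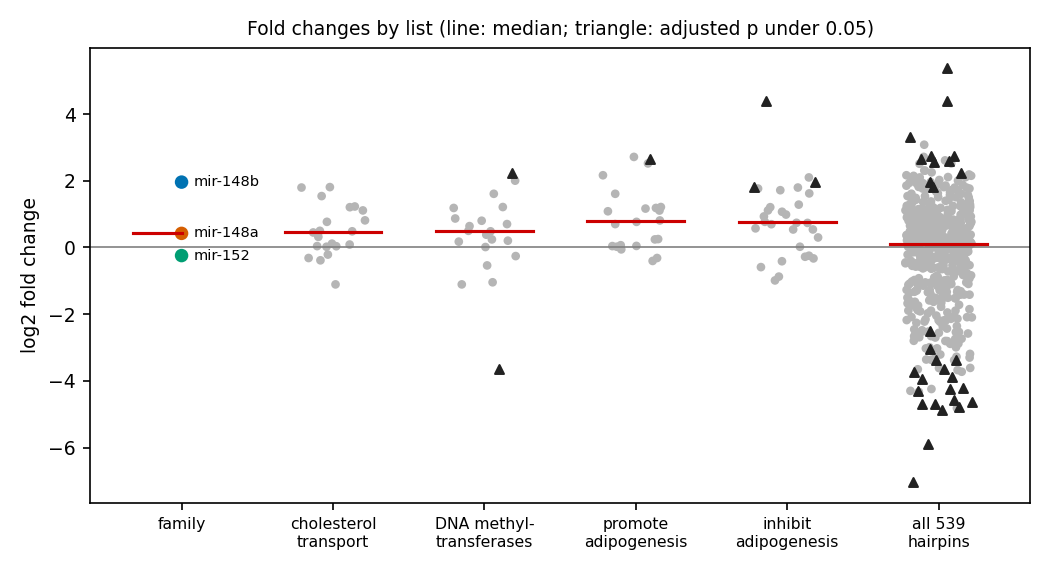
Log2 fold changes of the family, of the 4 lists and of all 539 hairpins in the authors' deposited table. Each dot is a hairpin, triangles have an adjusted p under 0.05, red lines are medians, and dots are spread sideways for legibility. The medians of the lists lie between 0.45 and 0.79, that of the 180 most abundant hairpins at 0.34 and that of all hairpins at 0.09, while the lists' median levels, from 7.63 to 11.06, lie above the 2.34 of the table.

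Marker miRNAs bear on which cells the exosomes came from. In the authors' deposited table all 7 myeloid and pan-leukocyte markers had a row, from 4.17 for mir-511 to 15.02 for mir-22 in mean log2 expression. Between those levels lay mir-223 (7.62), mir-142a (9.70), mir-155 (11.02), mir-146a (11.99) and mir-21a (14.94). Of the 7, mir-155 was called positive and mir-511 negative in the authors' deposited table, at log2 fold changes of 4.41 and −4.70. The rest of the 7 were not called. Highest among other markers in the authors' deposited table were mir-181a-2 for lymphocytes (12.66), mir-126a for endothelium (6.46) and mir-486b for erythrocytes (11.84). For adipocytes it was mir-378a (14.04), for mesenchymal cells mir-10b (9.94) and for serum and liver mir-192 (10.05). Lowest in the same lists, in that order, were mir-150 (3.24), mir-126b (5.91), mir-144 (4.15), mir-193b (0.97), mir-145a (0.22) and mir-122 (2.15). Levels within a list thus ranged widely for most cell types. Of 3 lymphocyte markers 2 were called positive in the authors' deposited table, mir-181a-1 at 2.57 and mir-181a-2 at 2.58 (limma, adjusted p = 0.00174 each). Those 2 hairpins have the same stem and near-equal levels (12.64 and 12.66), so they may not be separate measurements. Of 4 adipocyte markers mir-365-2 was called negative in the authors' deposited table, at −3.75 (limma, adjusted p = 0.0266). The other adipocyte markers were not called: mir-365-1, of the same stem, at 0.98, mir-378a at 0.02 and mir-193b at −0.56. Beside these counts of calls, 5.57% of all rows were called, 2.04% positive and 3.53% negative. None of the endothelial, erythrocyte, mesenchymal or serum and liver markers was called (limma), and none had an unadjusted p under 0.05, in the authors' deposited table. Several of these miRNAs are also made by macrophages. The third lymphocyte marker, mir-150, was at 3.24 and the liver marker mir-122 at 2.15 in mean level, with log2 fold changes of 0.59 and 1.36 that were not called (limma, adjusted p = 0.910 and 0.612), in the authors' deposited table. Their part in the values of the miR-148/152 family was not tested.

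All signs of the family held under other centrings of the table, which lower every value, so the negative sign of mir-152 could not turn. Relative to the 0.34 median of the 180 most abundant rows, the log2 fold changes of the authors' deposited table become 1.62 for mir-148b, 0.08 for mir-148a and −0.58 for mir-152, none of them called (adjusted p = 0.317, 0.990 and 0.806). The value of mir-148a thus shrinks from 0.42 to 0.08 under that centring, so most of it depends on the centring. That shift is smaller than its standard error of 1.37. Over all rows the calls of the authors' deposited table were 11 positive and 19 negative, and become 8 positive and 25 negative under the same centring.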

How the data were processed

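Small RNA was sequenced from 14 exosome libraries, 7 obese and 7 lean. Tools named in the submitters' processing notes, with no role given, are limma, edgeR, Novoalign, Trimmomatic 0.30, MultiQC and FastQC. No source used here gives the genome build, miRNA annotation, filters, scaling or assignment of reads shared between hairpins. The 1 file holds the authors' comparison, with 0 columns of per-library values, so depth is unknown and no counting interval is given. Per the file headers, which are those of limma's ranked results, the log2 scale holds for fold changes and mean expression. The deposited t is a score, and each row has a deposited p-value before and after adjustment. The deposited B is a natural log of odds that a row differs. Adjusting the deposited p by Benjamini-Hochberg over 539 rows returned the deposited adjusted p to within 1.46e-14.

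Standard errors are log2 fold change divided by t. Intervals use 17.9 total degrees of freedom, which t and p gave alike in all rows of larger absolute t. The same value was applied to rows of small t, such as mir-148a and mir-152, where it was not recovered. Computation used Python 3.11.15, numpy 2.4.6, scipy 1.17.1 and pandas 2.3.3. The recovery of the degrees of freedom and the Benjamini-Hochberg adjustment were checked on simulated data, where the standard errors return by construction. The weights, recentrings, comparisons with rows of like level and sequence searches were not checked in this way. The coordinates and sequences come from GRCm38 references, which may not be the authors' build. Named hairpins are the members, mir-155, the 4 rows nearest to each member in level and in fold change, called and 2 smallest-p members of each list, and the most abundant marker of each cell type. The hairpins mir-150, mir-122, mir-181a-1, mir-365-1, mir-365-2, mir-511, mir-223, mir-142a, mir-146a, mir-21a, mir-193b, mir-144, mir-145a, mir-29b-2, mir-130a, mir-130b, mir-301a and mir-301b were named after their values were seen. The members and lists were chosen with earlier results of these data known. Alternatives were other centrings, filters, adjustments and thresholds, and 1 hairpin per stem.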

Additional observations from a re-analysis of the deposited data

How the results depend on the processing

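The 3 fold changes of the miR-148/152 hairpins kept their sign and stayed uncalled under all 8 alternatives run, 24 values in all, and 0 members were called under each. Most of these outcomes were fixed in advance. Only the recentrings alter a fold change, and they lower it, so the negative sign of mir-152 could not turn. Benjamini-Yekutieli and Bonferroni adjustment cannot call a row that was uncalled before. Across the alternatives and the authors' deposited table, the log2 fold change ran from 1.62 to 1.96 for mir-148b, from 0.08 to 0.42 for mir-148a and from −0.58 to −0.24 for mir-152. The adjusted p of mir-148b ran from 0.141, with rows under a mean log2 expression of 3.32 left out, to 1.0 under Benjamini-Yekutieli and Bonferroni adjustment. Counts of called list members are small and moved. Among miRNAs that target DNA methyltransferases, 2 were called, against 1 after recentring by the 180 most abundant rows, 0 under Benjamini-Yekutieli or Bonferroni, and 3 above the expression minimum, in the more abundant 50% of rows and at an adjusted p under 0.1. Among inhibitors of adipogenesis 3 were called, against 1 after that recentring and under Benjamini-Yekutieli or Bonferroni, and 5 at an adjusted p under 0.1. Among cholesterol transport miRNAs 0 were called, against 2 above the expression minimum, in the more abundant 50% of rows and at an adjusted p under 0.1. Among promoters of adipogenesis 1 was called, against 2 under those same 3 settings and 0 under Bonferroni. The larger counts came with a filter by abundance or a looser threshold, and the smaller ones with a stricter adjustment or the shift. Fewer rows alone did not raise the count, since with 1 hairpin per stem 26 of 508 were called. Over all rows 30 of 539 were called, against 13 under Benjamini-Yekutieli, 11 under Bonferroni and 45 at an adjusted p under 0.1. With fewer rows kept, 32 of 231 were called above the expression minimum and 35 of 269 in the more abundant 50%. The share called over all rows was thus larger under these filters too, and the list counts there stand beside it. No paired analysis was possible because the comparison analysed here has no value for a single library, and for the same reason leaving out each library was not run. Without per-library values, how far any single library sets a fold change is unknown.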

Other observations

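The B column of the authors' deposited table bears on how the rows were weighted. With limma's default prior share of 0.01 for changed rows, B, t and the degrees of freedom give the precision weight of each row up to a common factor, and this weight rose with mean expression among the more abundant rows, across rows that are not independent (Spearman's rho 0.92). Rows were thus not weighted alike. The weight recovered from the authors' deposited table was 1.13 times as large for mir-148a as for mir-152, and 1.74 times as large for mir-148b. The standard error of mir-148a was 1.80 times that of mir-152 in the authors' deposited table, and that of mir-148b 1.07 times. Multiplied by the root of the weight, which restates the standard error with the weight taken out, these become 1.92 and 1.42 times. Where the equation has a second solution, as for mir-148b, the one with the larger weight was taken, by the same rule in every row. The weights given here rest on that choice. Whether a single library carries the error of mir-148a was not tested.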
